A study of Mus musculus with 36 samples.

Results

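The nicotinic acetylcholine receptor genes Chrna1, Chrna3, Chrna4, Chrna5, Chrna7, Chrnb1, Chrnb2, Chrnb4 and Chrng, and the receptor chaperone gene Ric3, were followed through 36 whole mouse embryos. All probes whose platform symbol was one of these 10 names were taken, which gave 26 of the 45281 probes on the array, for 10 of the 19057 genes named there. The embryos were male, of the inbred strain C57BL/6J, and were collected 9.5 days post coitum. Their mothers drank by choice, from 0.5 to 8.5 days post coitum, either ethanol at 10% by volume (Ethanol, 12 embryos) or freebase nicotine at 100 µg/ml (Nicotine, 12 embryos), and the Control mothers had water (12 embryos). The intake of each mother and the litter of each embryo are not in the labels used here, so the p-values measure the spread between these embryos, some of which may be littermates. Each embryo was read on 1 Illumina bead array, which reports 1 fluorescence intensity per probe.

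Nicotinic receptors are ion channels built from 5 subunits around a pore and opened by acetylcholine, and nicotine, from which they take their name, opens them too. Muscle receptors of the embryo combine the products of Chrna1, Chrnb1, Chrnd and Chrng, while neuronal receptors combine products of Chrna2 to Chrna7 and Chrnb2 to Chrnb4, or are made of the Chrna7 product alone. At this stage of the mouse the first neurons are leaving the neural tube, the first myotomes are forming and no motor endplate has yet been laid down. RIC3 is a membrane protein of the endoplasmic reticulum that helps receptors, those of CHRNA7 above all, to fold and assemble.

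By the limit used here 4 of the 10 genes were measured, beside 50.8% of all named genes, and 1 of the 4, Chrna3, lay close to the limit. A probe was taken as measured where its intensity reached 32 on at least 12 embryos, a limit that 37.4% of all probes passed. Among the members 6 of 26 probes (23.1%) passed: 2 of Chrna4, 2 of Ric3, 1 of Chrnb1 and 1 of Chrna3. Chrnb1 probe A and Ric3 probe A reached 32 in all 36 embryos, both Chrna4 probes in 35, Ric3 probe B in 33 and Chrna3 probe A in 16. Of the other 20 probes, 18 reached 32 in no embryo, and their highest value was 25.1. The 2 remaining ones were Chrnb1 probe B, which reached it in 1 embryo, and Chrng probe A, which reached it in 2. No probe of Chrna1, Chrna5, Chrna7, Chrnb2 or Chrnb4 reached 32 in any embryo. Letters rank the probes of a gene by mean level, and levels are compared only within a probe, because each probe has its own brightness.

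**Figure D1:**
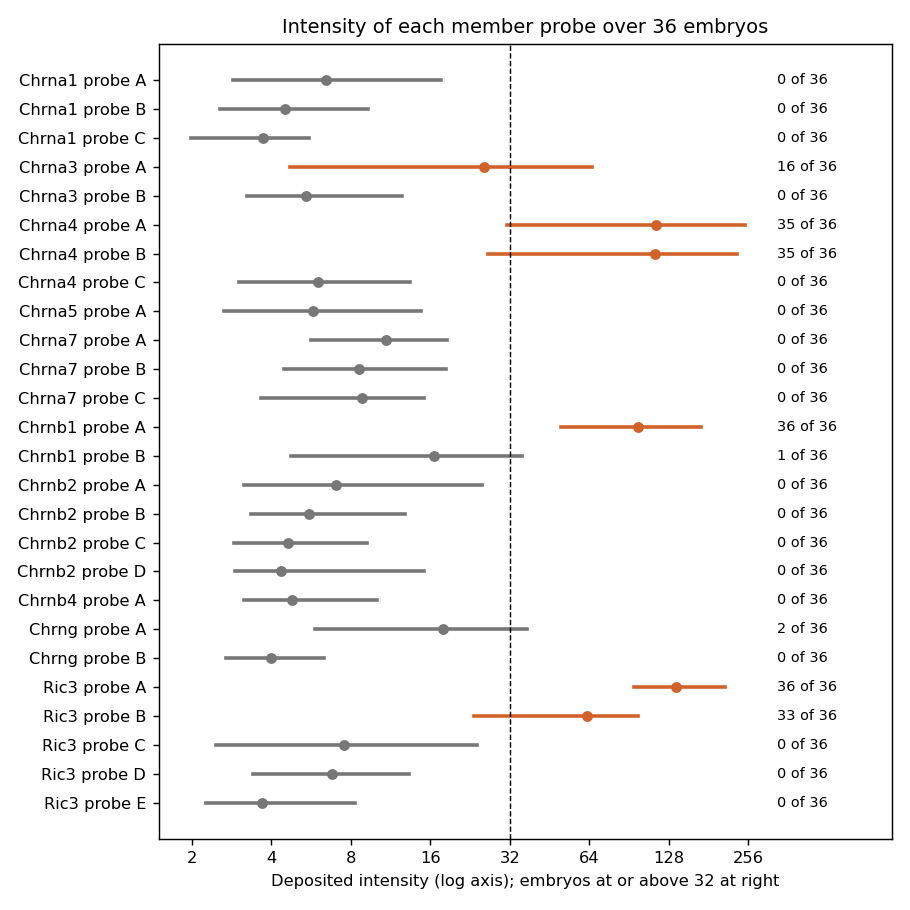
Lowest, median (dot) and highest deposited intensity of each of the 26 member probes over the 36 embryos, on a log axis, with the dashed line at 32 and the number of embryos at or above it at the right. Orange marks the 6 probes past the filter; 18 of the other 20 lie to the left of the line in every embryo.

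A low intensity is a limit of the probe as much as of the gene. Tubb3, the tubulin of new neurons, and Pax3, Met and Myf5, all known from embryos of this age, also reached 32 in no embryo on any of their probes, and so did the broadly used chaperone gene Canx. Within the members, probes of 1 gene differed as widely: Chrna4 probes A and B had medians of 114 and 113 while probe C had a median of 5.99, and Ric3 probes A and B had medians of 137 and 62.7 while the other 3 Ric3 probes had medians from 3.69 to 7.55. Of the markers listed for cells of the embryo, 6 of 6 genes of primitive erythroid cells, 7 of 7 of heart muscle, 7 of 8 of the tail bud, 6 of 9 of autonomic and neural crest cells, 9 of 18 of neurons and 9 of 17 of the myotome passed the filter. Of the visceral yolk sac list, a tissue outside the embryo proper, 5 of 6 genes passed, with a summed intensity from 102 to 22069 between embryos. In whole embryos, fewer cells of a type and less RNA per cell cannot be told apart.

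The arrays did not form 1 even set. Replicates 1 to 6 and 7 to 12 of every group lay apart, with 64.8% of the 16927 tested probes called different between them (limma, adjusted p under 0.05), and within the first set the 3 embryos numbered 6 resembled each other (mean r 0.64 over 3 pairs) more than embryos 1 to 5 (mean r -0.22 over 45 pairs, values centred on the set). Nicotine 3 had a summed heart muscle intensity of 111, against 9260 in the next lowest embryo, and also the lowest summed myotome intensity. The labels name no slide, litter or day for the replicate numbers. Values within each set are given for nicotine against control.

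Chrna4 encodes the alpha4 subunit, which with beta2 forms the high-affinity nicotine receptor of the adult brain. Its brightest probe, probe A (ILMN_1245582), had a lowest, median and highest intensity of 31.2, 118 and 249 in Control, 70.5, 117 and 219 in Ethanol and 56.5, 114 and 210 in Nicotine. Probe B (ILMN_2832675) had 26.5, 119 and 233 in Control, 51.7, 116 and 225 in Ethanol and 69.7, 99.6 and 222 in Nicotine. The groups overlapped over most of their range, and the extremes were both Control embryos: Control 5 was the highest embryo on both probes, while Control 4 was the lowest on probe A and Control 8 on probe B.

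Chrna3 encodes the alpha3 subunit of autonomic ganglia, and its gene lies between Chrna5 and Chrnb4 in 1 cluster. Probe A (ILMN_1244673) was close to the limit, with a lowest, median and highest intensity of 4.71, 38.5 and 65.4 in Control, 14.2, 26.6 and 50.7 in Ethanol and 11.2, 21.1 and 38.5 in Nicotine. It reached 32 in 7 Control, 5 Ethanol and 4 Nicotine embryos. The medians were ordered Control, Ethanol, Nicotine, but the ranges overlapped, and Control held the lowest embryo as well as the highest. The second Chrna3 probe had a median of 5.41 and followed no such order, with medians of 5.35 in Control, 5.14 in Ethanol and 6.21 in Nicotine.

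Chrnb1 encodes the beta1 subunit of the muscle receptor. Probe A (ILMN_3001481) had a lowest, median and highest intensity of 50.0, 107 and 163 in Control, 54.7, 97.0 and 156 in Ethanol and 60.9, 93.8 and 169 in Nicotine. The 3 groups covered nearly the same range. Its probe B, with medians of 16.8 in Control, 16.2 in Ethanol and 17.1 in Nicotine, was below the limit in 35 of 36 embryos.

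Ric3 had 2 measured probes that did not behave alike. Probe A (ILMN_3072117) had a lowest, median and highest intensity of 94.4, 127 and 169 in Control, 108, 137 and 162 in Ethanol and 117, 156 and 209 in Nicotine. On this probe the Nicotine embryos ran higher, with 4 of them (replicates 3, 6, 7 and 8) above every embryo of the other groups, although the groups overlapped. Probe B (ILMN_1234357), designed on another transcript record, had 24.0, 62.9 and 98.3 in Control, 23.5, 61.4 and 86.8 in Ethanol and 26.6, 65.4 and 84.7 in Nicotine. Its 3 lowest values were those of replicate 6 of the 3 groups, the only embryos in which it lay below 32. On probe A the same 3 embryos were not low, at 124 in Control, 138 in Ethanol and 174 in Nicotine.

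**Figure D2:**
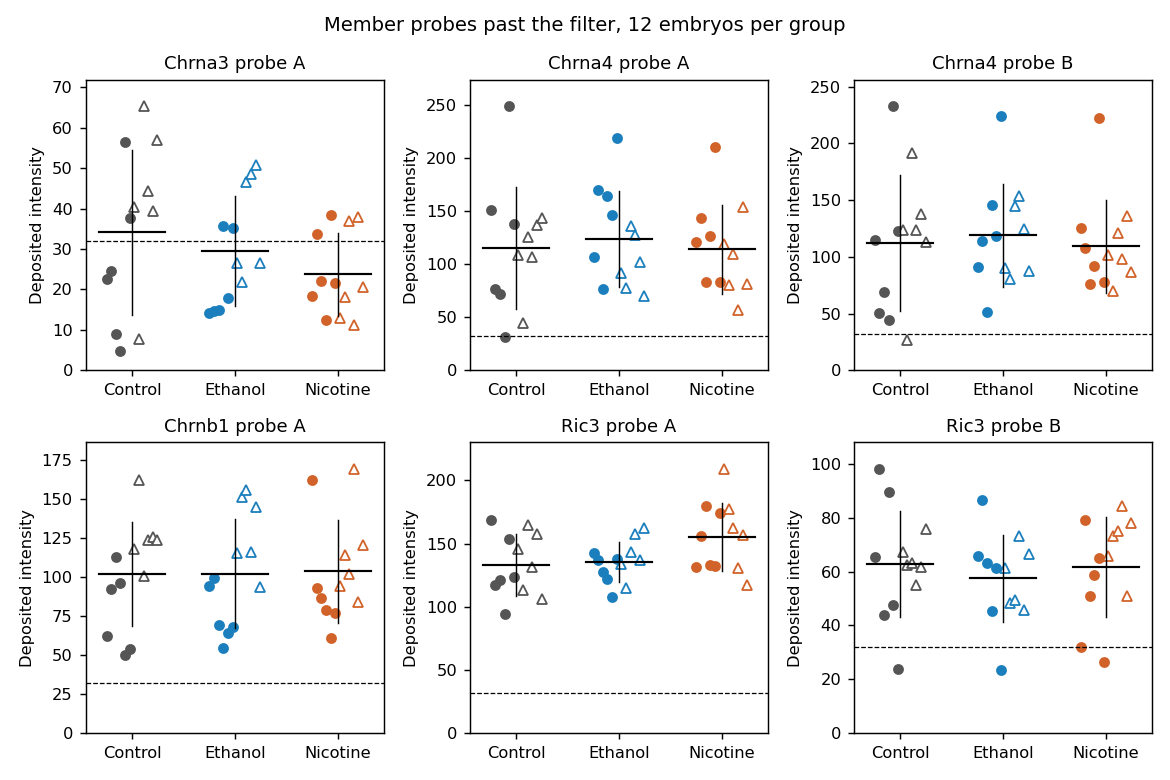
Deposited intensity of the 6 member probes past the filter in each embryo (filled circles for replicates 1 to 6, open triangles for 7 to 12), with the group mean and SD as black lines (n = 12 per group) and the dashed line at 32. The groups overlap on every probe; Ric3 probe A has a median of 156 in Nicotine and 127 in Control.

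The comparison of nicotine with water asks whether exposure to the ligand of these receptors left a mark on the RNA of the receptors themselves. No member probe passed the test. Over all tested probes 0.00591% were called (1 of 16927, limma), and among the members 0 of 6 were called. The differences below are in log2(intensity + 16), as Nicotine minus Control, with the standard error (SE) and the 95% interval of the fit. Chrna4 probe A differed by 0.06 (SE 0.21, interval -0.38 to 0.49) and probe B by 0.07 (SE 0.22, interval -0.38 to 0.52). Chrnb1 probe A differed by 0.03 (SE 0.17, interval -0.31 to 0.37). Chrna3 probe A differed by -0.25 (SE 0.20, interval -0.66 to 0.16) and was higher in Nicotine in 4 of 12 pairs of equal replicate number. Within the replicate sets its difference was 0.045 in 1 to 6 and -0.54 in 7 to 12, and the difference between the sets was not called (-0.58, SE 0.38, adjusted p = 0.825). With array weights it was -0.39 (adjusted p = 0.702). Within replicates 1 to 6 and 7 to 12, the difference was 0.24 and -0.12 for Chrna4 probe A, 0.22 and -0.079 for Chrna4 probe B and 0.21 and -0.14 for Chrnb1 probe A, so the sign turned between the sets for each, with no difference between sets called. Each of the intervals over all embryos holds 0. That of Chrna3 leaves room for a difference near the SD between Control embryos, 0.68 (0.37 in Nicotine). Those of Chrna4 probes A and B end short of the Control SDs of 0.68 and 0.75, but leave room for differences near the Nicotine SDs of 0.45 and 0.40.

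Of the 6 measured member probes, Ric3 probe A had the smallest p against control. Its mean log2 level was 7.20 ± 0.24 (SD, n = 12) in Control and 7.40 ± 0.22 in Nicotine, a difference of 0.20 (SE 0.087, interval 0.022 to 0.37, limma unadjusted p = 0.0283, adjusted p = 0.669). It was higher in Nicotine in 7 of 12 pairs. Of all tested probes 6.51% had an unadjusted p under 0.05, so 1 in 6 members is not read as a result about the members. The difference was 0.21 within replicates 1 to 6 (interval -0.044 to 0.46) and 0.19 within replicates 7 to 12 (interval -0.069 to 0.45). Without the embryos numbered 6 it was 0.18 (interval -0.013 to 0.36). Each of these intervals holds 0. Ric3 probe B, by contrast, differed by -0.019 (SE 0.15, interval -0.33 to 0.29), which has no settled sign: it was -0.15 within replicates 1 to 6 and 0.11 within 7 to 12, 0.079 with array weights and 0.056 without Nicotine 6.

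**Figure D3:**
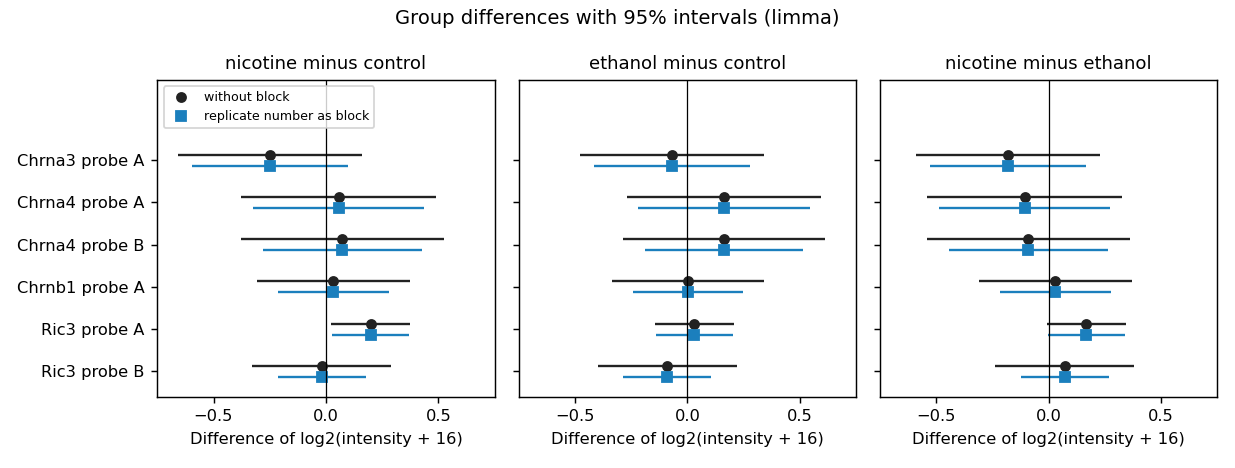
Difference of log2(intensity + 16) for the 6 measured member probes in the 3 comparisons, with 95% intervals from limma, without (black circles) and with (blue squares) replicate number as a block. Ric3 probe A, at 0.20 in Nicotine minus Control, has the only intervals that leave out 0, and it did not pass after adjustment.

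With replicate number as a block the picture for the members was the same. In that fit 1.15% of all tested probes were called for nicotine against control (194 of 16927, limma), and again 0 of the 6 member probes. Without the embryos numbered 6 the blocked fit called 0 of 16927 probes for nicotine against control (limma, 2668 at an unadjusted p under 0.05, and 3000 with these embryos). It called 0 for nicotine against ethanol (1916), and the fit without the block called 0 for nicotine against control (1130). No other replicate number was left out of the blocked fit, so whether this loss is particular to the embryos numbered 6 was not tested. Each replicate number occurs once in each group, so the block changes the SE but cannot change a difference. Ric3 probe A, at 0.20, had an SE of 0.084 and an adjusted p of 0.212 (limma). The adjusted p of Chrna3 probe A was 0.461, and that of the others was 0.866 or above.

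For ethanol against water, 0% of the 16927 tested probes were called (limma), with 177 at an unadjusted p under 0.05 (1.05%), and none of the 6 members was among either. As Ethanol minus Control, Chrna4 probes A and B differed by 0.16 (SE 0.21) and 0.16 (SE 0.22), Chrna3 probe A by -0.067 (SE 0.20), Chrnb1 probe A by 0.0032 (SE 0.17), and Ric3 probes A and B by 0.031 (SE 0.087) and -0.090 (SE 0.15). All 6 intervals held 0, and the widest ran from -0.29 to 0.61 for Chrna4 probe B. Nicotine was also set directly against ethanol, where 0% of probes were called (limma, 834 at an unadjusted p under 0.05, 4.93%) and 0.408% with the block (69 probes, and 0 without the embryos numbered 6). None of the 6 members was called in either fit. As Nicotine minus Ethanol, Chrna3 probe A differed by -0.18 (SE 0.20, interval -0.59 to 0.23) and Ric3 probe A by 0.17 (SE 0.087, interval -0.0084 to 0.34), and both Ric3 probes were higher in Nicotine than in Ethanol in 9 of 12 pairs. The comparisons share their Control or Nicotine embryos and are not independent of each other.

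Over the 4 measured member genes, each by its brightest probe, the median difference was 0.045 for Nicotine minus Control and 0.017 for Ethanol minus Control, beside 0.012 and 0.0076 over all 9683 measured genes. Of the 4 genes 3 lay above 0 in each, as did 54.5% and 54.2% of all genes. A difference between the 2 replicate sets in the effect of a drink was called for 0% of probes, and for none of the 6 members (limma, interaction of treatment with set). At an unadjusted p under 0.05 there were 1175 probes for nicotine and 389 for ethanol against control and 459 for nicotine against ethanol, with no member among them.

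Of the muscle subunit genes, Chrnb1 was measured and Chrna1 and Chrng were not. Chrna1 encodes the alpha1 subunit, which carries the acetylcholine site, and Chrng the gamma subunit, which is replaced after birth by the product of Chrne. The medians of the 3 Chrna1 probes were 6.47, 4.50 and 3.73, below the median of an array (10.7 to 10.8). Chrng probe B lay below the array median in all 36 embryos. Chrnd and Chrne, the other muscle subunit genes, are no members; Chrnd reached 32 in 0 embryos and Chrne in 1. The 250 bases before the start of these 3 member genes are shown because promoters of muscle receptor subunit genes are known for E-boxes, the short words bound by MyoD and myogenin; sequences are from RefSeq (GRCm38.p6), 5′ to 3′ on the strand of the gene, with each CANNTG in capitals.
Chrna1, chr2:73580339-73580588, minus strand: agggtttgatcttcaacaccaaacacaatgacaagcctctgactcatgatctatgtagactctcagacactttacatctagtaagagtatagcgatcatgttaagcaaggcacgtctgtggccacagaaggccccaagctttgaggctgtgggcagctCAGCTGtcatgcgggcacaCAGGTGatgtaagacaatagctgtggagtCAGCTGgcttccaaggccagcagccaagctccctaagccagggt
Chrng, chr1:87205561-87205810, plus strand: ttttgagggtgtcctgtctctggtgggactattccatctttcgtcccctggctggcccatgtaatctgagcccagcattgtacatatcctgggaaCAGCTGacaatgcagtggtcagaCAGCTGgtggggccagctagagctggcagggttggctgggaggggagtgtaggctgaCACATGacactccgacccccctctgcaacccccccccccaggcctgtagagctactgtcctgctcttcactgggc
Chrnb1, chr11:69795938-69796187, minus strand: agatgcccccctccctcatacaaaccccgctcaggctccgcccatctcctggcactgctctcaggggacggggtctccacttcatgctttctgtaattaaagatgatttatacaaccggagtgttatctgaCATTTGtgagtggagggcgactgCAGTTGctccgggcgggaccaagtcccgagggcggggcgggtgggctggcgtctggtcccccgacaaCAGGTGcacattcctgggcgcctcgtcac

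Each of the 3 windows held 3 words of the form CANNTG, a pattern that reads the same on both strands. Of 32817 RefSeq promoter windows of this length 66.2% held at least 1 and 12.2% at least 3. In Chrna1 and Chrng 2 of the 3 words were CAGCTG, which 1.26% of windows held at least 2 times, and in Chrnb1 none was. The windows also differed in CG pairs, with 3 in Chrna1, 2 in Chrng and 14 in Chrnb1, beside a median of 6 over all windows. The window of Chrna4, the other subunit gene measured in nearly all embryos, held 24 CG pairs and 0 CANNTG words. It was the only member window without such a word, and is shown for that reason. 
Chrna4, chr2:181039178-181039427, minus strand: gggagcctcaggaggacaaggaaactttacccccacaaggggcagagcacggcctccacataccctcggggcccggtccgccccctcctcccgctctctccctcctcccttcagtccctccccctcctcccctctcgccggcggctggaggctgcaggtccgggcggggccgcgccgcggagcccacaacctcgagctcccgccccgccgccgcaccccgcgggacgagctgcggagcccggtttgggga

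Of the other windows, that of Chrna7 held 25 CG pairs, that of Chrna3 13, that of Chrnb2 10, that of Chrnb4 8 and the 2 of Chrna5 3 and 17. Each also held CANNTG words: 2 in Chrna7, 2 in Chrna3, 1 in Chrnb2, 2 in Chrnb4 (1 of them CAGCTG) and 1 and 2 in Chrna5. Such words were thus not confined to the muscle subunit genes. Of the 10 genes 9 had an entry in the promoter table. A word found in a window is a description and no site of binding.

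Chrng probe A is given by its values, since it reached 32 only in Ethanol 6 (34.5) and Nicotine 11 (37.3). The lowest, median and highest intensity were 8.63, 19.7 and 30.6 in Control, 10.97, 19.5 and 34.5 in Ethanol and 5.87, 8.21 and 37.3 in Nicotine. In 8 of 12 Nicotine embryos this probe lay below the median intensity of its own array, against 1 of 12 Control and 0 of 12 Ethanol embryos, 4 of the 8 being in replicates 1 to 6 and 4 in 7 to 12. This count was chosen after the values were seen. In the fit without a filter on dim probes, Nicotine minus Control was -0.35 (SE 0.13, interval -0.62 to -0.078, unadjusted p = 0.013, adjusted p = 0.708, limma), and Nicotine minus Ethanol -0.35 (SE 0.13, adjusted p = 0.897). Of all 45281 probes 5.79% had an unadjusted p under 0.05 in the first of these and 0% were called. Adding 16 compresses differences between intensities of that size, and also their spread, and Chrng probe A was not fitted with another pseudocount. Chrng probe B, below the array median in all 36 embryos, differed by -0.023 (SE 0.028) for Nicotine minus Control and -0.0089 (SE 0.028) for Nicotine minus Ethanol.

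Muscle genes gave no call beside it. Of the myotome list 9 of 17 genes were measured, 0 of the 9 lay above 0 for Nicotine minus Control and 0 were called, with a median of -0.20. The measured genes included Actc1, Acta1, Tnnc1, Tnni1, Des and Mef2c, which the heart of the embryo also uses, so the list does not read the myotome alone. The sign of the median rested on Nicotine 3, the embryo with the lowest heart sum: without this embryo 6 of the 9 lay above 0 and the median was 0.0048, while Chrng probe A still differed by -0.33 (SE 0.14, adjusted p = 0.873, limma). Leaving it out was chosen after seeing the data. Tnnt1, a troponin of slow muscle, differed by -0.20 (SE 0.18) and Cdh15, the cadherin of muscle precursors, by -0.20 (SE 0.18) over all embryos. The summed intensity of the 9 genes had a lowest, median and highest value of 15826, 20422 and 29791 in Control, 11425, 21118 and 25644 in Ethanol and 1788, 22754 and 30011 in Nicotine. The muscle regulators Myf5, Myf6, Myod1, Pax3 and Pax7 reached 32 in no embryo.

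**Figure D4:**
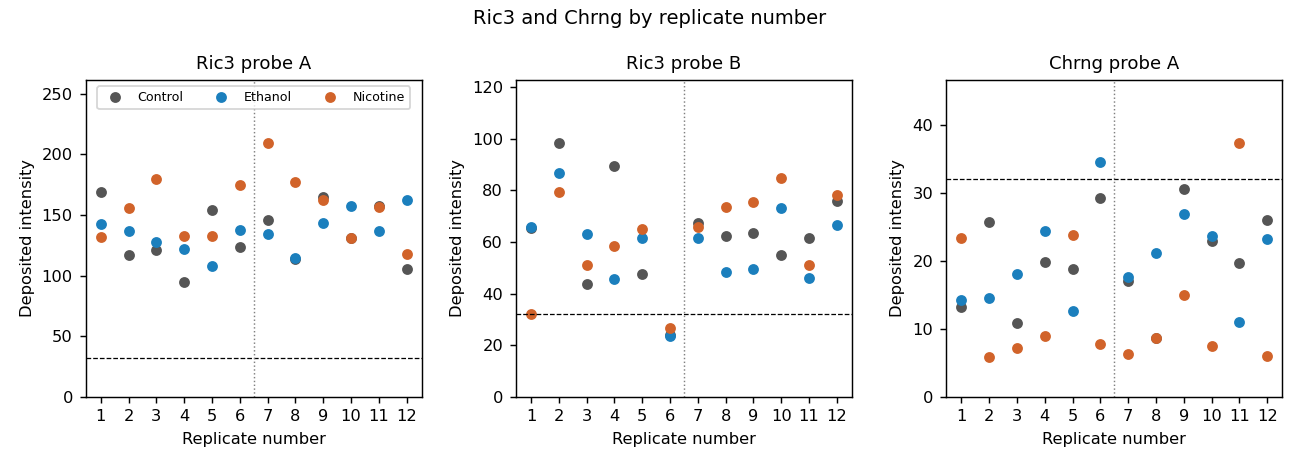
Deposited intensity of Ric3 probe A, Ric3 probe B and Chrng probe A against the replicate number of the embryo, coloured by group, with the dashed line at 32 and a dotted line between replicates 6 and 7. Ric3 probe B is below 32 in the 3 embryos numbered 6 alone, and Chrng probe A is lowest in Nicotine embryos, with a group median of 8.21.

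The other dim members gave no call. Over the 20 member probes that did not pass the filter, the fit on all 45281 probes called 0 in each comparison (limma). At an unadjusted p under 0.05 there was 1 for Nicotine minus Control (Chrng probe A), 1 for Ethanol minus Control (Chrna4 probe C, 0.13, SE 0.061) and 3 for Nicotine minus Ethanol: Chrng probe A, Chrna4 probe C at -0.19 (SE 0.061, adjusted p = 0.683) and Chrnb2 probe A at -0.24 (SE 0.10, adjusted p = 0.968). Of all probes 2.67% and 4.8% had such a p in the last 2 comparisons. Chrna4 probe C had a highest value of 13.4, and its brighter sister probes differed by -0.11 and -0.090 for the same contrast. Chrnb2, the partner of Chrna4 in the brain receptor, had a highest value of 25.1 over its 4 probes. Chrna7, which forms the receptor of 1 subunit kind that RIC3 assists, had medians of 10.9, 8.59 and 8.81 on its 3 probes and a highest value of 18.4. The single probes of Chrna5 and Chrnb4, the neighbours of Chrna3, had medians of 5.74 and 4.80.

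Between the replicate sets, Chrnb1 probe A was the 1 member probe called different. It had a lowest, median and highest intensity of 50.0, 77.9 and 162 in replicates 1 to 6 and 84.3, 119 and 169 in replicates 7 to 12. The sets overlapped, with 8 of the 18 embryos of the first set at or above the lowest of the second. The difference was 0.53 as replicates 7 to 12 minus 1 to 6 (SE 0.10, adjusted p = 3.41e-05, limma), and 0.49 (adjusted p = 0.000226) without the embryos numbered 6. The dim Chrnb1 probe B did not show it, at -0.019 (SE 0.10, adjusted p = 0.927, limma) in the fit without a filter. With 64.8% of all probes called in this comparison and 38.6% called higher in replicates 7 to 12, 1 of 6 members is below the background. Chrna3 probe A differed by 0.31 (SE 0.16, adjusted p = 0.0848) and Chrna4 probe A by -0.23 (SE 0.17, adjusted p = 0.227).

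Across embryos of the same group and set, Chrna3 and Chrna4 varied together. With values centred on group and set, Chrna3 probe A and Chrna4 probe A had a Pearson r of 0.80 in replicates 1 to 6 (n = 18, permutation p = 9e-05, adjusted p = 0.00054; Spearman rho 0.68, permutation p = 0.00258) and of 0.84 in replicates 7 to 12 (n = 18, permutation p = 4e-05, adjusted p = 0.0004; Spearman rho 0.74, permutation p = 0.00072). Adjustment was over 30 relations, all pairs of the 6 measured probes in both sets. Without the 2 embryos farthest from the median of Chrna3, r was 0.62 and 0.74. The permutation treats the embryos of a set as exchangeable, although same-numbered embryos resemble each other. Without the embryos numbered 6, r of Chrna3 and Chrna4 probe A was 0.79 (n = 15), and with values centred also on replicate number it was 0.73 in replicates 1 to 6 and 0.78 in 7 to 12, centrings added after seeing the data. The 2 Chrna4 probes tracked each other at r = 0.93 (permutation p = 1e-05, the smallest 100000 resamples can give) and 0.83 (permutation p = 9e-05), with rho 0.93 and 0.80.

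Chrnb1 ran the other way from Chrna3 in the first set. The Pearson r of the pair was -0.67 in replicates 1 to 6 (n = 18, permutation p = 0.00278, adjusted p = 0.0119; rho -0.72, permutation p = 0.00129) and -0.60 without the 2 farthest embryos, -0.66 without the embryos numbered 6 and -0.65 with centring on replicate number. In replicates 7 to 12 it was -0.45 (permutation p = 0.0601, adjusted p = 0.150; rho -0.42, permutation p = 0.0868) and -0.24 without the 2 farthest, so the relation did not pass there and rested in part on those embryos. Chrnb1 and Ric3 probe A had r = -0.61 in replicates 7 to 12 (permutation p = 0.00739, adjusted p = 0.0277; rho -0.55, permutation p = 0.0183, adjusted p = 0.055, so that the rank relation did not pass) and -0.28 in replicates 1 to 6 (permutation p = 0.266), and -0.67 and -0.69 once centred on replicate number. The 2 Ric3 probes did not track each other, at r = -0.21 (permutation p = 0.405) and -0.078 (permutation p = 0.755).

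**Figure D5:**
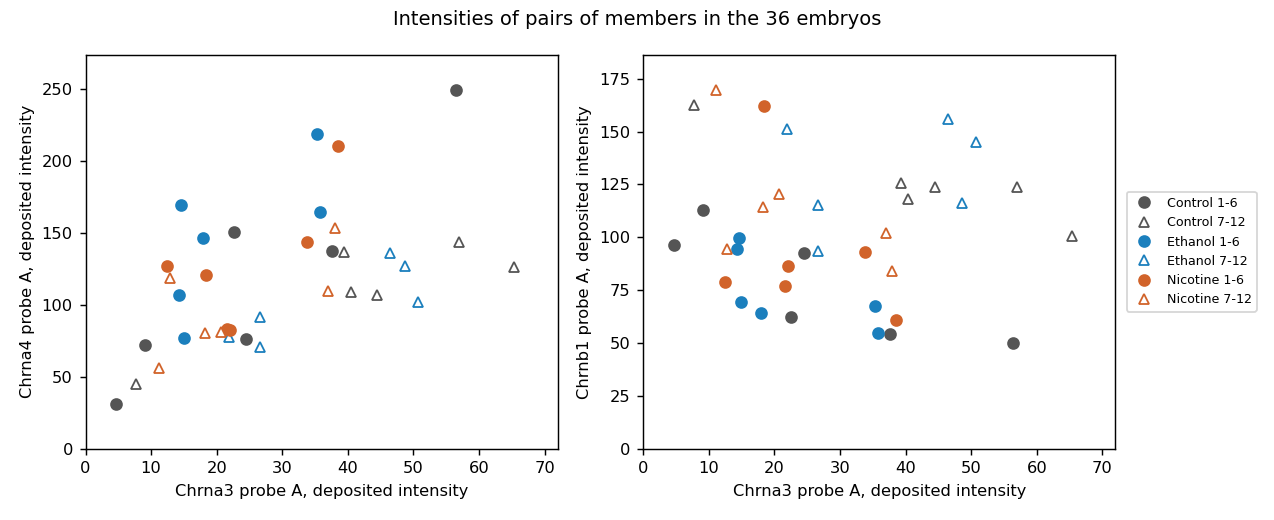
Deposited intensity of Chrna3 probe A against Chrna4 probe A (left) and against Chrnb1 probe A (right), 1 point per embryo, coloured by group and filled for replicates 1 to 6. Within each set embryos high in Chrna3 are high in Chrna4 (r 0.80 and 0.84 after centring on group and set), while Chrnb1 tends to be lower in them (r -0.67 and -0.45).

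Neuronal genes shared the pattern of the neuronal subunits. Over the 36 embryos, centred on group and set, the genes with the highest Pearson r to Chrna3 among 9682 measured genes were Fez1 (0.87), which encodes a protein of axon outgrowth, Ckb (0.87), the brain creatine kinase, and Myt1 (0.85), a zinc finger factor of neuronal differentiation. For Chrna4 they were Rufy3 (0.83), a protein of axon growth, Plk3 (0.82) and Sncaip (0.82), the synuclein partner synphilin. Of the 9 measured genes of the neuron list 7 had an r above 0.5 with Chrna3 (median r 0.68) and 6 with Chrna4 (median 0.58), as did 7.27% and 7.74% of all measured genes. The 6 measured autonomic and neural crest genes did not follow, with a median r of -0.0037 with Chrna3 and 0.012 with Chrna4. For each subunit 1 of the 6 had an r above 0.5 and 1 had an r below -0.5. Genes of the tail bud lay opposite: of 7 measured, 5 had an r below -0.5 with Chrna3 and 4 with Chrna4, as did 4.38% and 5.08% of all genes. These are descriptions over the 36 embryos, which are centred together and whose exact stages are not in the labels, with no p-value.

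Chrnb1 had other company. Its 3 most alike genes were Tmem125 (r = 0.87), Lad1 (0.87), which encodes the basement membrane protein ladinin, and Tmem82 (0.83). Of the 9 neuron genes 0 had an r above 0.5 with Chrnb1 and 4 had one below -0.5 (median -0.49), as did 4.70% and 5.04% of all genes. Of the 9 myotome genes 0 had one above 0.5 (median 0.20), and the list of highest median was that of the visceral yolk sac (0.47, 1 of 5 above 0.5). For Ric3 probe A the most alike genes were Cachd1 (0.80), a channel-associated membrane protein, N4bp1 (0.79) and Thoc2 (0.74), a subunit of the RNA export complex THO. With this probe 0 of 9 neuron genes exceeded 0.5 (median 0.17), beside 4.28% of all genes, so the count is not read as a contrast. 

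Beside the -0.25 of Chrna3, the neuron genes themselves gave no call. Of 9 measured, 1 lay above 0 and 0 were called for Nicotine minus Control, with a median of -0.29 with and without Nicotine 3. Dcx, a microtubule protein of migrating neurons, differed by -0.71 (SE 0.28, adjusted p = 0.56) and Isl1, a factor of motor and sensory neurons, by -0.25 (SE 0.12, adjusted p = 0.742). The summed intensity of the 9 genes ran from 1337 to 3062 in Control, 1827 to 2985 in Ethanol and 1218 to 2771 in Nicotine. The tail bud sum ran from 821 to 3378 in Control, 995 to 3736 in Ethanol and 1353 to 6017 in Nicotine, with 7 of 7 genes above 0, a median of 1.15, and 0 called without and 6 with the replicate block. Its 2 genes of smallest p were Wnt3a, a Wnt ligand, at 0.64 (adjusted p = 0.216, and 0.0435 with the block) and Nkx1-2 at 1.15 (adjusted p = 0.251, and 0.0273 with the block). None of the blocked calls held without the embryos numbered 6, where Wnt3a differed by 0.64 (adjusted p = 0.0928) and Nkx1-2 by 1.12 (adjusted p = 0.0705). The part of cell composition or stage in the Chrna3 values was not tested.

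Few other cholinergic genes were read by their probes, and none was called. Over all named genes 50.8% had a probe past the filter. Of the 7 further receptor subunit genes and the 5 muscarinic receptor genes, 0 passed the filter. Among genes that make, carry and break down acetylcholine 2 of 8 passed, the choline transporter genes Slc44a1 (0.046, SE 0.12) and Slc44a2 (-0.039, SE 0.11), while Chat, Slc18a3 and Slc5a7, which define a cholinergic neuron, reached 32 in no embryo. Of the motor endplate list 4 of 11 passed, with the agrin receptor Lrp4 and agrin itself among them, and Dag1, dystroglycan, at -0.13 (SE 0.15) and Erbb2, a neuregulin receptor, at -0.025 (SE 0.064) had the smallest p. Musk and Rapsn, which gather receptors at the endplate, reached 32 in no embryo. Of the assembly and accessory proteins 8 of 12 passed: Tmem35a, the receptor chaperone NACHO, differed by -0.36 (SE 0.19, interval -0.74 to 0.021, adjusted p = 0.80) and Ywhah, a 14-3-3 protein, by 0.060 (SE 0.058). All values are Nicotine minus Control, and in these lists 0 genes were called in any of the 3 comparisons, with or without the block.

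In the remaining lists Nicotine minus Control had a median of -0.085 over 6 autonomic and neural crest genes, -0.25 over 7 heart genes (0.092 without Nicotine 3), -0.0085 over 6 primitive erythroid genes and -0.017 over 5 yolk sac genes, with 0 called without the block. The 2 genes of smallest p were Tfap2b (-0.48, adjusted p = 0.216, and 0.0264 with the block, but 0.0706 with the block and without the embryos numbered 6) and Ret (0.45, adjusted p = 0.378) in the first, Myl2 (-0.59) and Nppa (-0.48) in the heart, Hbb-bh1 (0.090) and Hbb-y (0.071) in blood, and Trf (-0.38) and Afp (-0.29) in the yolk sac.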

How the data were processed

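RNA of 36 whole male C57BL/6J embryos was measured on an Illumina mouse bead array, 1 array per embryo, with 12 embryos in each of the groups Control, Ethanol and Nicotine. Each deposited value is a linear intensity; the submitters' processing notes name GenomeStudio 1.9.0. How background and normalization were handled is not given in the sources used here. The arrays share 1 highest value (18147) and 1 mean (357.7), and their medians lie between 10.7 and 10.8. The deposited values thus already had nearly the same distribution on every array, as quantile normalization gives. A table of unnormalized signals was not used, because its 72 signal and detection columns match no sample label, so no detection p-value stands behind a level here.

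Gene symbols came from the platform annotation: 34885 probes had 1 symbol, 18 had several and 10378 had none. Probes were matched to the 10 members by symbol, and no further probe was found through RefSeq synonyms. From the intensity, log2(intensity + 16) was computed, a scale that compresses the differences of dim probes and also their spread. The 16927 probes at 32 or more on 12 or more arrays went into limma 3.58.1 (R 4.3.3), which fitted 1 level for each group and left 33 degrees of freedom. P-values are two-sided, adjusted after Benjamini and Hochberg over every tested probe, and called under 0.05. The number of arrays limits the precision.

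Same-numbered embryos of different groups deviated together in 36 of 36 pairs (r above 0.1, lowest 0.243), so a fit with replicate number as a block (22 residual degrees of freedom) is the paired alternative; the pairing comes from the data, not from the labels. Much of it came from replicates 1 to 6 lying apart from 7 to 12. Embryos of the same set with other numbers had a mean r of 0.474, beside 0.589 for the same number. Their r was above 0.1 in 174 of 180 pairs, so that limit does not set pairs of the same number apart. Members, gene lists and tests were chosen with earlier results of these data known. Genes outside the members are named as the 2 of smallest p for nicotine against control in a list, as those past the threshold (up to 4 a list), or as the 3 most alike genes of a member. Others (Tubb3, Pax3, Pax7, Met, Canx, the Myf genes, Myod1, Chrnd, Chrne, Chat, Slc18a3, Slc5a7, Musk, Rapsn, Lrp4, agrin and the measured myotome genes) are named for whether their probes were read, and were chosen after their values were seen. The lists cover other receptor subunits, receptor assembly and accessory proteins, the motor endplate, acetylcholine handling, muscarinic receptors, myotome, neurons, autonomic and neural crest cells, heart, primitive erythroid cells, yolk sac and tail bud. Some listed genes are not reported here.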

Additional observations from a re-analysis of the deposited data

How the results depend on the processing

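The number of member probes called was 0 in each drug comparison, and 1 between the replicate sets, under every alternative run: replicate block, set block, pseudocounts of 1 and 32, no filter, a minimum of 64, renewed quantile normalization, array weights, and embryos left out (limma; the sets only with a pseudocount of 1, no filter and without replicate 6). Over single probes, 822 of 879 repeated values kept their sign and 57 changed sign, all of them uncalled. This count says little about stability. In this balanced design neither a block nor a change of filter can alter a difference, and fits without 1 embryo share all the others. Renewed quantile normalization left Chrna3 at -0.247871 for nicotine against control, beside -0.247865 before, so it too says little. With the replicate block, the adjusted p of Ric3 probe A for nicotine against control was 0.212 (limma). The block changed no call of a member. Over all probes the block raised the calls for nicotine against control from 1 to 194, of which 0 were left without replicate 6, while the set block gave 3. Signs changed with array weights for nicotine against control in Ric3 probe B (0.079), Chrna4 probe A (-0.074), Chrna4 probe B (-0.045) and Chrnb1 (-0.015), for ethanol against control in Chrna4 probe A (-0.037), and for nicotine against ethanol in Chrnb1 (-0.088). They changed within replicates 1 to 6 for Chrna3 (nicotine against control 0.045, against ethanol 0.092), Ric3 probe B (nicotine against ethanol -0.11) and Chrnb1 (ethanol against control -0.024). Within replicates 7 to 12 they changed for nicotine against control in Ric3 probe B (0.11), Chrna4 probe A (-0.12), Chrna4 probe B (-0.079) and Chrnb1 (-0.14), for ethanol against control in Chrna4 probe A (-0.088), and for nicotine against ethanol in Chrnb1 (-0.17). Without replicate 6, with and without the replicate block, Chrna4 probe B was 0.025 for nicotine against ethanol, and Chrnb1 was -0.020 for ethanol and -0.00043 for nicotine against control. With a pseudocount of 1 Chrna3 was 0.0051 for ethanol against control. Leaving out 1 embryo at a time, nicotine against control ranged from 0.16 to 0.23 for Ric3 probe A (lowest adjusted p 0.453), -0.10 to 0.056 for Ric3 probe B, -0.066 to 0.16 for Chrna4 probe A, -0.058 to 0.17 for Chrna4 probe B, -0.038 to 0.093 for Chrnb1 and -0.35 to -0.17 for Chrna3. For ethanol against control the signs changed over -0.17 to 0.0083 for Chrna3, -0.068 to 0.065 for Chrnb1 and -0.0071 to 0.060 for Ric3 probe A, and for nicotine against ethanol over -0.0074 to 0.15 for Ric3 probe B and -0.032 to 0.085 for Chrnb1; Chrna4 probe B there ranged from -0.18 to -0.0075 and had no change of sign. The cause was not tested. Chrna3 and the unmeasured members lie at intensities near those of the dim probes, so their differences are the least well determined.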
